A study of Homo sapiens with 6 samples.

Results

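The genes described here are the 10 m6A readers and m6A-associated RNA-binding genes YTHDF1, YTHDF2, YTHDF3, YTHDC1, YTHDC2, IGF2BP1, IGF2BP2, IGF2BP3, HNRNPA2B1 and ELAVL1. They were chosen by name from the 27394 genes of the deposited RNA-seq table, and all 10 were among the 22189 genes kept for testing, whose values averaged 1 or more. The cells were PANC-1, an established human pancreatic ductal cancer line, grown with 10% fetal bovine serum in RPMI-1640 medium according to the sample labels, while the general methods of the study name DMEM. One group of 3 libraries carried a control shRNA (shControl) and the other group of 3 an shRNA against ZDHHC20 (shZDHHC20), a membrane enzyme that attaches palmitate to proteins. The labels do not say which ZDHHC20 shRNA sequence was used or whether the replicates were separate cultures, so p-values measure only the spread between these samples. The study examined YTHDF3 as a protein acted on by ZDHHC20. By RT-qPCR in PANC-1 and AsPC-1 cells, it reported no significant change of YTHDF3 mRNA after ZDHHC20 knockdown. By western blot it reported less YTHDF3 protein, which these RNA libraries do not measure. The libraries allow the question of whether the mRNAs of YTHDF3 and the other readers differed between the groups.

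N6-methyladenosine (m6A) is a methyl mark on adenosines of mRNA that is set by a writer complex around METTL3 and removed by the erasers FTO and ALKBH5. Readers bind the mark or the RNA around it. In the cytoplasm, YTHDF proteins are known for bringing marked mRNAs to deadenylation and decay and, in some reports, to translation. IGF2BP proteins are known for stabilizing their target mRNAs, while YTHDC1 and HNRNPA2B1 act mainly in the nucleus.

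Values are the normalized counts of the deposited table, in which each library's values are whole multiples of its smallest value above 0. ZDHHC20 itself was at 2001, 2033 and 1940 normalized counts in shControl replicates 1, 2 and 3 and at 872, 779 and 893 in shZDHHC20 replicates 1, 2 and 3. The groups did not overlap, and the log2 fold change was -1.23 with an SE of 0.0649 (limma, adjusted p = 4.361e-07). The libraries summed to between 17083277 and 18007664 normalized counts, of which the 10 readers held 0.185 to 0.189%. Over the 4136 genes averaging 1000 or more, the SD of log2 differences was 0.0674 to 0.0718 between shControl libraries and 0.0722 between shZDHHC20 replicates 1 and 3. It was 0.178 to 0.198 between shZDHHC20 replicate 2 and the other 2 libraries of its group. The ductal markers KRT8, KRT18, KRT19, KRT7 and SOX9 were all detected, and their summed level was 84334 to 86590 normalized counts in shControl and 78101 to 79132 in shZDHHC20. KRT8 held most of that sum, with means of 56187 in shControl and 51529 in shZDHHC20, while KRT7 was low, at means of 86.5 and 85.3. KRT8, KRT18 and SOX9 were lower in each shZDHHC20 library than in any shControl library, while KRT19 was higher. Of the markers of other cell types, the acinar sum reached at most 8.45, the endothelial sum 10.1, the leukocyte sum 45.1 and the fibroblast sum 94.3 normalized counts, and none of 3 endocrine markers was listed. Of the fibroblast markers, LUM was listed at 0 in every shControl library. The part of these markers in the results was not tested.

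YTHDC2 was the only reader whose change passed the test, and it was higher in shZDHHC20. The other 9 readers did not pass at an adjusted p of 0.05 (limma), YTHDF3 among them. Of all genes tested, 11.5% were called, with 4.61% higher and 6.84% lower in shZDHHC20, beside 1 in 10 of the readers. With a filter at an average of 10, 19.4% of genes were called and still 1 reader. Every reader averaged over 1000, so neither share was taken over genes of like level. For 4 readers the shControl and shZDHHC20 libraries held separate ranges, namely YTHDC2, IGF2BP2, IGF2BP3 and HNRNPA2B1, against 28.6% of all genes. No reader reached the study's criteria of p under 0.01 with a fold of at least 1.5, here applied to the limma p, which 2.45% of all genes reached. The median size of the log2 fold change was 0.0404 over the readers, 0.246 over all genes tested and 0.120 over those averaging 1000 or more. In bulk RNA such as this, fewer cells expressing a gene and less RNA of it per cell cannot be told apart.

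**Figure D1:**
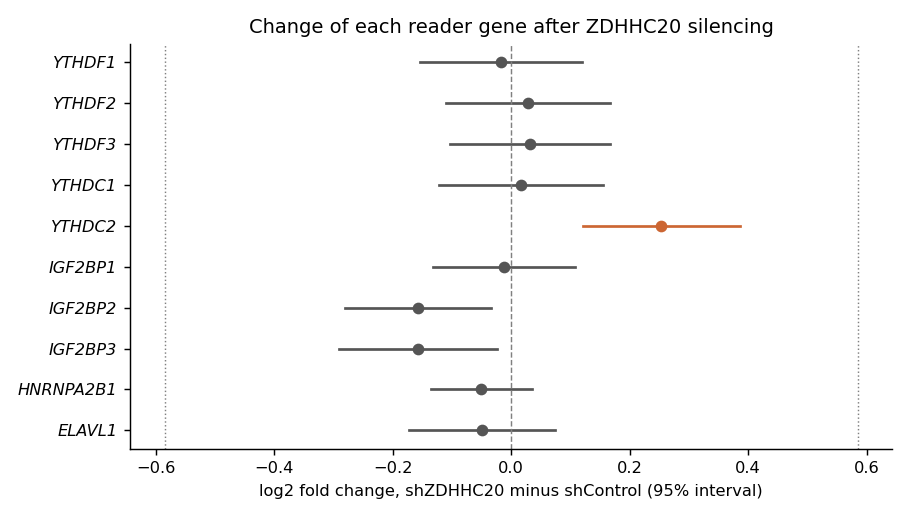
The log2 fold change of each reader gene, shZDHHC20 minus shControl, on the horizontal axis, with 95% confidence intervals from limma as bars, orange for an adjusted p under 0.05 and dotted lines at a fold of 1.5 in either direction. YTHDC2 at 0.25 is the single orange point, and IGF2BP2 and IGF2BP3 lie at -0.16 each.

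**Figure D2:**
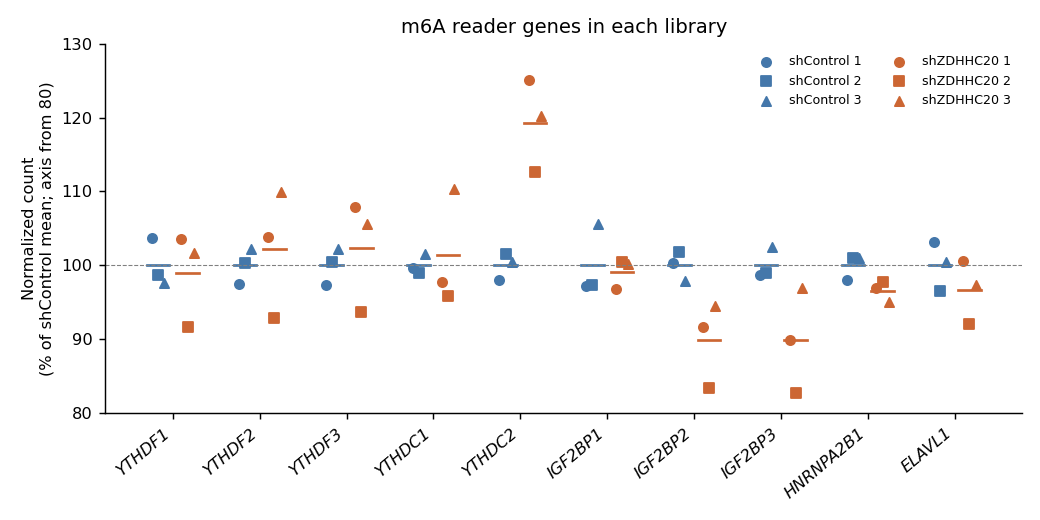
Normalized counts of each reader gene in the 6 libraries as a percentage of the shControl mean of that gene (the axis does not start at 0), with a marker shape for each replicate number and short lines at the group means. The shZDHHC20 mean of YTHDC2 lies at 119.3%, and those of IGF2BP2 and IGF2BP3 lie at 89.8% each.

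Gene positions are those of GENCODE 29 on GRCh38 and cover the whole gene, exons and introns. The YTHDF genes encode 3 closely related cytoplasmic readers. YTHDF3 (ENSG00000185728, chr8:63168553-63212786, plus strand), which is known to act together with the other YTHDF proteins, was at 1780, 1838 and 1870 normalized counts in shControl and at 1975, 1713 and 1932 in shZDHHC20. The shZDHHC20 libraries lay on both sides of the shControl libraries, with replicate 2 the lowest of all 6. The log2 fold change was 0.03 with an SE of 0.0625 (adjusted p = 0.814), and its 95% confidence interval ran from -6.90 to 12.2% of the control level. These libraries were therefore compatible with no change of YTHDF3 mRNA and with a change anywhere within those bounds. Without shZDHHC20 replicate 2 the log2 fold change was 0.09, with a 95% confidence interval from 0.00569 to 0.184. It did not pass over all genes (unadjusted p = 0.0387, adjusted p = 0.14, limma). Without shZDHHC20 replicate 1 the log2 fold change was -0.00775.

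YTHDF2 (ENSG00000198492, chr1:28736621-28769775, plus strand) recruits the CCR4-NOT deadenylase to m6A-marked mRNAs. It was at 1911, 1966 and 2003 normalized counts in shControl and at 2034, 1820 and 2155 in shZDHHC20, again with replicate 2 below every other library. Its log2 fold change was 0.03 with a 95% confidence interval from -0.11 to 0.17 (adjusted p = 0.845). YTHDF1 (ENSG00000149658, chr20:63195429-63216234, minus strand), known for its link to translation of marked mRNAs, was at 1436, 1366 and 1351 in shControl and at 1433, 1268 and 1408 in shZDHHC20. The groups overlapped, with a log2 fold change of -0.02 and an interval from -0.15 to 0.12 (adjusted p = 0.913). In 8 of the 10 readers, shZDHHC20 replicate 2 was the lowest library of its group. That library also had the lowest sum of values of all libraries, at 17083277 normalized counts. The same count over all genes was not made, so this is not read as a trait of the readers.

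YTHDC1 and YTHDC2 carry the same kind of m6A-binding domain but are otherwise unlike each other. YTHDC2 (ENSG00000047188, chr5:113513683-113595285, plus strand), an RNA helicase needed for meiosis in germ cells, was at 1048, 1085 and 1074 normalized counts in shControl and at 1338, 1204 and 1285 in shZDHHC20. Every shZDHHC20 library was above every shControl library. The means were 1069 ± 19.0 and 1275 ± 67.3 (SD, n = 3 each), and the rise was 0.25 on the log2 scale with an SE of 0.0615 (limma, adjusted p = 0.017). The 95% confidence interval of the rise ran from 8.75 to 30.7%, and the gene ranked 1519 by p among the genes tested.

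The direction of the YTHDC2 difference held in each of 16 alternatives, with log2 fold changes of 0.18 to 0.29, but its call did not. The adjusted p was 0.0949, 0.0659 and 0.076 without shControl replicate 1, 2 or 3, 0.0987 without shZDHHC20 replicate 1 and 0.0546 without shZDHHC20 replicate 3. Without shZDHHC20 replicate 2 it was 0.000607. The adjusted p was 0.147 when the variances were moderated with no mean-variance trend. The transcript of YTHDC2 has a GC content of 33.4%, the lowest of the 10 readers, and after a spline of GC content was removed from each library the log2 fold change was 0.18 (adjusted p = 0.0317).

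YTHDC1 (ENSG00000083896, chr4:68310387-68350089, minus strand), a nuclear reader known for its part in splicing and mRNA export, was at 1371, 1362 and 1399 normalized counts in shControl and at 1346, 1320 and 1521 in shZDHHC20. The groups overlapped, and the log2 fold change was 0.02 with an interval from -0.12 to 0.16 (adjusted p = 0.916). The ratio of YTHDC2 to YTHDC1, which needs no scaling between libraries, was 0.764, 0.796 and 0.768 in shControl and 0.994, 0.912 and 0.845 in shZDHHC20. The ratios did not overlap and differed by 0.24 on the log2 scale (exact permutation test, two-sided, p = 0.1, the smallest that 3 against 3 libraries can give). The ratio of YTHDC2 to YTHDF3 differed by 0.22 and that of YTHDC2 to IGF2BP2 by 0.41 on the log2 scale, each at the same smallest p = 0.1 of the exact permutation test. These ratios were not among the planned tests. YTHDC2 and IGF2BP2 each already lay apart between the groups, so the ratios are not separate support for the YTHDC2 rise.

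**Figure D3:**
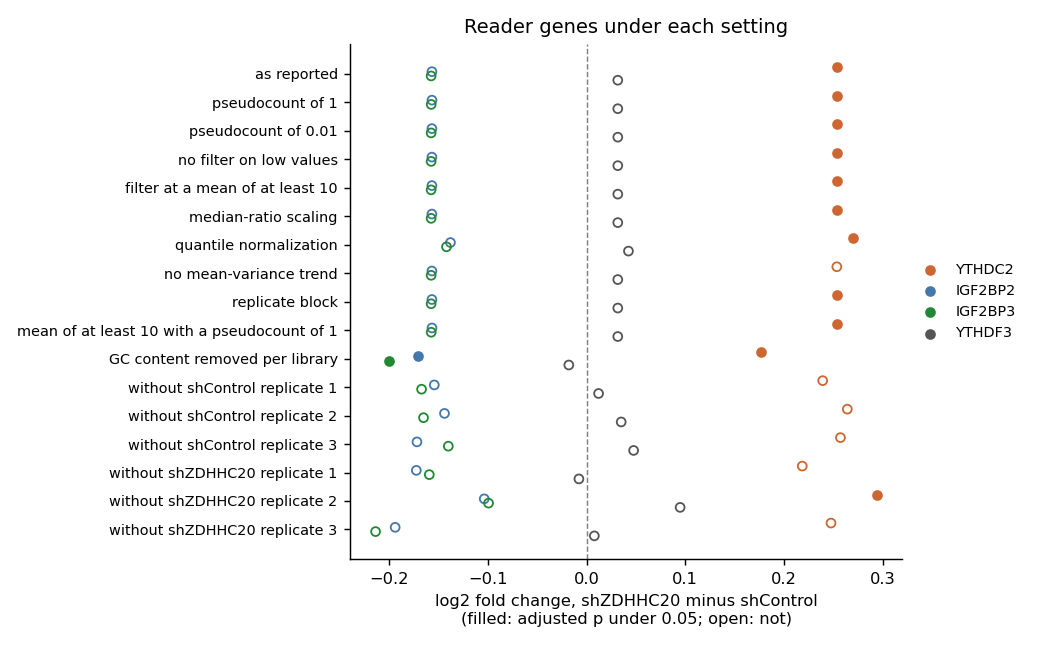
The log2 fold change, shZDHHC20 minus shControl, of YTHDC2, IGF2BP2, IGF2BP3 and YTHDF3 as reported and under 16 alternatives, 1 per line, with filled points for an adjusted p under 0.05. YTHDC2 stays between 0.18 and 0.29, with open points in 6 alternatives, while YTHDF3 lies between -0.018 and 0.09 and is open throughout.

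The IGF2BP genes encode 3 RNA-binding proteins with KH domains, of which IGF2BP1 and IGF2BP3 are known for being made in embryos and again in many tumours. IGF2BP2 (ENSG00000073792, chr3:185643739-185825056, minus strand) was at 2549, 2586 and 2488 normalized counts in shControl and at 2330, 2118 and 2400 in shZDHHC20. All 3 shZDHHC20 libraries lay below the shControl libraries. The log2 fold change of -0.16, with a 95% confidence interval from -0.28 to -0.03, did not pass over all genes (unadjusted p = 0.0167, adjusted p = 0.105, limma). IGF2BP3 (ENSG00000136231, chr7:23310209-23470467, minus strand) was at 2175, 2180 and 2258 in shControl and at 1981, 1823 and 2136 in shZDHHC20, also without overlap. Its log2 fold change was likewise -0.16, with an interval from -0.29 to -0.02 (unadjusted p = 0.0243, adjusted p = 0.133, limma).

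Removing GC content from each library, an alternative chosen after seeing the data, took both genes past the threshold, at -0.17 for IGF2BP2 (adjusted p = 0.0377) and -0.20 for IGF2BP3 (adjusted p = 0.0114). Without shZDHHC20 replicate 2 the log2 fold change was -0.10 for both, with an adjusted p of 0.0698 for IGF2BP2 and 0.137 for IGF2BP3. IGF2BP3 shares 1521 exon bases with MALSU1 on the opposite strand, and whether reads were counted by strand is not given in the sources used here. MALSU1 was at 603 to 756 normalized counts with a log2 fold change of -0.05 (adjusted p = 0.8).

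IGF2BP1 (ENSG00000159217, chr17:48997412-49055650, plus strand), which is known for binding the coding region of MYC mRNA, was at 1782, 1784 and 1935 normalized counts in shControl and at 1775, 1841 and 1836 in shZDHHC20. The groups overlapped, and the log2 fold change was -0.01 with an interval from -0.13 to 0.11 (adjusted p = 0.932). The ratio of IGF2BP2 to IGF2BP1 differed by -0.14 on the log2 scale (exact permutation test, p = 0.3) and that of IGF2BP3 to IGF2BP1 by -0.15 (exact permutation test, p = 0.1). Neither ratio was among the planned tests.

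HNRNPA2B1 and ELAVL1 lack the m6A-binding domain of the YTH proteins and are counted with the readers because they bind RNAs around the mark. HNRNPA2B1 (ENSG00000122566, chr7:26173057-26201529, minus strand), a nuclear protein of splicing and microRNA processing, was at 17314, 17842 and 17831 normalized counts in shControl and at 17125, 17270 and 16774 in shZDHHC20. The libraries did not overlap, but the difference was small, at -0.05 on the log2 scale with an interval from -0.14 to 0.03 (adjusted p = 0.486). Its exons share 368 bases with CBX3 on the opposite strand, which was at 4553 to 5346 normalized counts with a log2 fold change of -0.08 (adjusted p = 0.45).

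ELAVL1 (ENSG00000066044, chr19:7958579-8005659, minus strand) encodes HuR, which binds AU-rich elements and stabilizes mRNAs that carry them. It was at 1903, 1780 and 1853 normalized counts in shControl and at 1857, 1698 and 1797 in shZDHHC20. The groups overlapped, with a log2 fold change of -0.05 and an interval from -0.17 to 0.07 (adjusted p = 0.66). The widest 95% confidence interval among the readers reached 0.14 to either side on the log2 scale.

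Shares within a family compare its members inside each library after division by exon length. YTHDF3 made up 23.7, 24.4 and 24.6% of the summed YTHDF level per kilobase in shControl and 25.0, 24.5 and 24.1% in shZDHHC20. The mean shares of YTHDF1, YTHDF2 and YTHDF3 were 34.3 ± 1.28, 41.5 ± 0.786 and 24.3 ± 0.491% in shControl and 33.5 ± 0.593, 41.9 ± 0.975 and 24.6 ± 0.427% in shZDHHC20 (SD, n = 3 each). The differences of -0.726, 0.422 and 0.305 percentage points were within the spread of the libraries (exact permutation tests, p = 0.4, 0.7 and 0.5). Leaving out 1 library moved them to between -1.25 and -0.0146 points for YTHDF1, -0.124 and 0.814 for YTHDF2, and 0.0284 and 0.508 for YTHDF3. The values nearest 0 were those without shControl replicate 1, so the size of these differences is not settled.

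Within the IGF2BP family, IGF2BP2 held the largest share, at 53.8 ± 1.27% in shControl and 52.7 ± 0.858% in shZDHHC20 (SD, n = 3 each). IGF2BP1 was at 20.2 ± 0.860 and 21.9 ± 1.33% and IGF2BP3 at 25.98 ± 0.412 and 25.4 ± 0.687%. All 3 IGF2BP shares overlapped between the groups, with differences of 1.68 points for IGF2BP1, -1.13 for IGF2BP2 and -0.551 for IGF2BP3 (exact permutation tests, p = 0.2, 0.3 and 0.3). Leaving out 1 library gave 0.911 to 2.17 points for IGF2BP1, -1.85 to -0.670 for IGF2BP2 and -0.920 to -0.240 for IGF2BP3, with the value nearest 0 in each case without shZDHHC20 replicate 2. YTHDC2 made up 33.5 ± 0.504% of the YTHDC pair in shControl and 37.3 ± 1.90% in shZDHHC20 (SD, n = 3 each), a difference of 3.77 points without overlap (exact permutation test, p = 0.1). The YTHDC shares were not planned and rest on the same values as the ratio of YTHDC2 to YTHDC1. These 8 shares were not adjusted for multiple tests, and none could pass at 3 against 3 libraries.

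**Figure D4:**
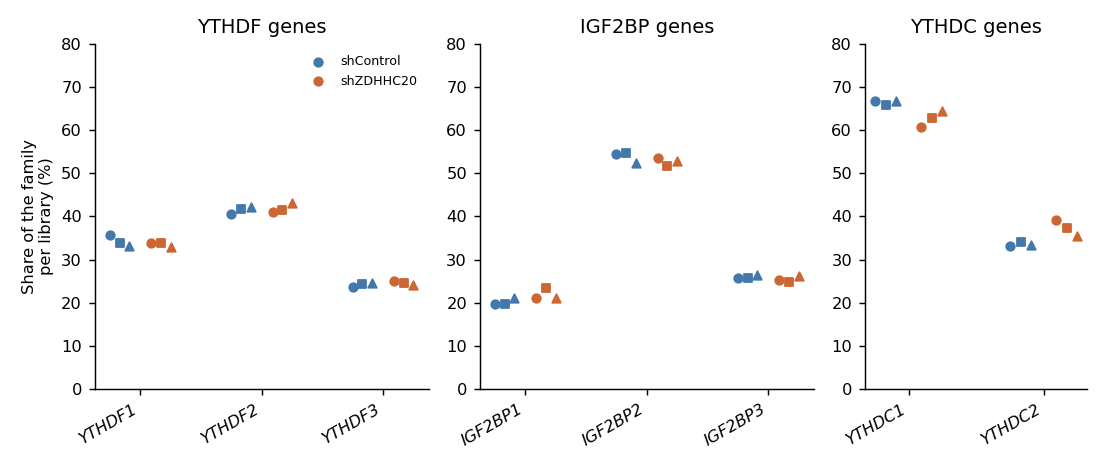
Share of each gene in the summed level per kilobase of its family, in percent, for the YTHDF, IGF2BP and YTHDC families, with 1 point per library and a marker shape for each replicate number. YTHDF3 lies at 24.3% in shControl and 24.6% in shZDHHC20, and YTHDC2 is at 33.5 and 37.3% of its pair.

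Per kilobase of merged exons, HNRNPA2B1 stood far above the other readers, at 1906 ± 32.5 normalized counts per kilobase in shControl and 1841 ± 27.5 in shZDHHC20 (SD, n = 3 each). In shControl it was followed by IGF2BP2 at 537 ± 10.5, YTHDF2 at 508 ± 12.1, YTHDF1 at 419 ± 13.8 and YTHDF3 at 297 ± 7.38 normalized counts per kilobase. ELAVL1 at 265 ± 8.90, IGF2BP3 at 259 ± 5.46, IGF2BP1 at 201 ± 9.65, YTHDC1 at 196 ± 2.72 and YTHDC2 at 98.8 ± 1.76 completed the order. Within shControl the ranges of ELAVL1 and IGF2BP3 and of IGF2BP1 and YTHDC1 overlapped, so the order within those pairs did not exceed their spread, and they overlapped within shZDHHC20 as well. IGF2BP2 was above YTHDF2 in every shControl library, at 538, 546 and 525 against 495, 509 and 519 normalized counts per kilobase. In shZDHHC20 it was below YTHDF2 in each library, at 492, 447 and 507 against 527, 472 and 558, although the ranges of that group overlapped. Per kilobase of merged exons, the order of this pair was therefore not the same in the 2 groups, and this turn was not tested. With the longest coding transcript, IGF2BP2 was at 689 ± 13.4 and YTHDF2 at 670 ± 15.9 in shControl (SD, n = 3 each). In shZDHHC20 the means were 619 and 685. On that length IGF2BP2 was not above YTHDF2 in every shControl library. The level of HNRNPA2B1 was 19.3 times that of YTHDC2 per kilobase of merged exons in shControl. With the length of the longest coding transcript in place of merged exons, the ratio was 28.5 and IGF2BP3 moved from place 7 to place 4. YTHDF3 thus had the lowest level of the YTHDF genes on either length, at 352 normalized counts per kilobase of its longest coding transcript against 419 for YTHDF1 and 670 for YTHDF2.

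**Figure D5:**
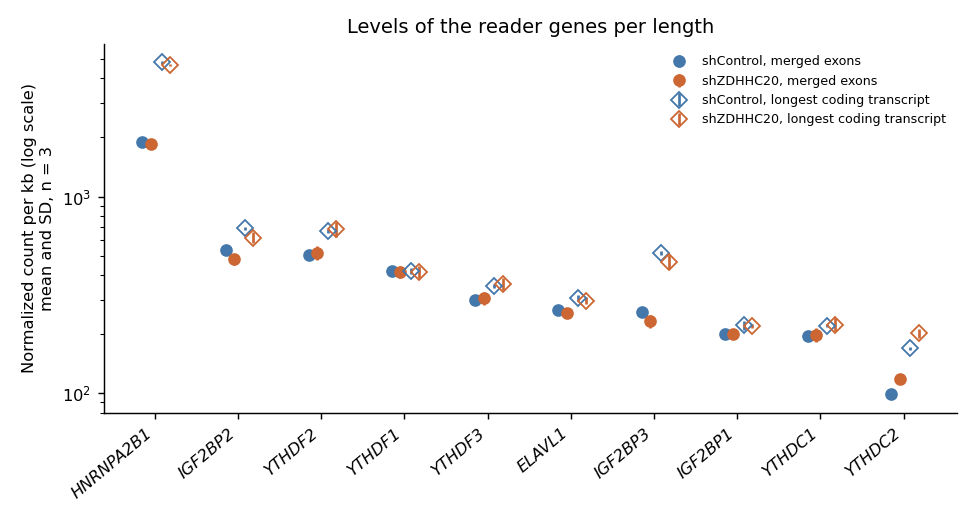
Normalized counts per kilobase of the 10 reader genes on a logarithmic axis, as group means with SD bars (n = 3), with filled circles for merged exons and open diamonds for the longest coding transcript. Per merged exons in shControl, HNRNPA2B1 is highest at 1906, YTHDF3 is at 297 and YTHDC2 is lowest at 98.8.

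Since MYC mRNA is a known target of IGF2BP proteins and MYC binds the E-box CACGTG, which reads the same on both strands, this motif was searched in promoters of 300 bases, from 250 before to 50 after the start of a gene (RefSeq on GRCh38.p14). It was found in 2548 of 35116 promoters, or 7.26%, and at least 2 copies were found in 0.664%. Of the 10 readers 7 had an entry in that table, while YTHDF3, IGF2BP1 and ELAVL1 had none and were not searched. Among the 7, the motif was found in the promoters of IGF2BP3 and YTHDF1. The stretches holding it are shown on the minus strand, 5′ to 3′, with the motif in capitals, from chr7:23470602-23470695 for IGF2BP3 and from chr20:63216307-63216372 for YTHDF1.
IGF2BP3: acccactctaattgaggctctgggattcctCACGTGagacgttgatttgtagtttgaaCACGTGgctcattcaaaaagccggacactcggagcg
YTHDF1: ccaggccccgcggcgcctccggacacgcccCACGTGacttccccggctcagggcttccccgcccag
The copies lie 174 and 146 bases before the start of IGF2BP3 and 211 bases before the start of YTHDF1. A match describes the letters of the promoter, and binding was not measured. Of these genes, IGF2BP3 had a log2 fold change of -0.16 and YTHDF1 of -0.02, neither past the test over all genes.

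The genes whose log2 values followed YTHDF3 most closely over the 6 libraries, among 4135 others averaging 1000 or more, were ACTR3 (Pearson's r = 0.997), a subunit of the Arp2/3 actin complex, CEBPG (r = 0.994), a transcription factor, and DHX36 (r = 0.985), a helicase that unwinds G-quadruplexes. All 3 had their lowest value in shZDHHC20 replicate 2 and their highest in shZDHHC20 replicate 1, as YTHDF3 had. For ACTR3 these were 6353 and 7318 normalized counts. The 3 genes were picked for the highest r over only 6 libraries, so the high r and like order follow from the picking. A link of these genes to YTHDF3 was not tested.

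Genes around the readers were taken from 7 lists with 85 genes, of which 81 were tested. Of these, 4 were higher and 14 lower in shZDHHC20, with a median log2 fold change of -0.03 against 0.01 for all genes, and 22.2% were called against 11.5% of all genes. The lists were written with earlier results of these data known, and MYC was known to be lower when it was listed. With a filter at an average of 10 the count was 23, with 8 higher and 15 lower, when 19.4% of all genes were called. Without shZDHHC20 replicate 2 the count was 38, with 17 higher and 21 lower, when 20% of all genes were called. It was 3 with no mean-variance trend, namely G3BP2, MYC and CCND1.

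Among 12 other m6A-associated binders, 1 was higher and 1 lower, with a list median of 0.02. They were the related stress granule genes G3BP2 and G3BP1. G3BP2 was at 3236, 3356 and 3360 normalized counts in shControl and at 4986, 4665 and 5167 in shZDHHC20, a rise of 0.57 on the log2 scale (limma, adjusted p = 1.5e-05). G3BP1 fell by 0.32 on the log2 scale, from 6326 ± 188 to 5069 ± 278 normalized counts (SD, n = 3 each, limma, adjusted p = 0.00121). Both genes were called without any 1 of the libraries, and without shZDHHC20 replicate 2 the list count was 7, with 4 higher and 3 lower. The binders not called included FMR1 at -0.10 (adjusted p = 0.301) and its relatives FXR1 at 0.05 (adjusted p = 0.643) and FXR2 at -0.04 (adjusted p = 0.819).

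Of the close relatives of the readers, 5 of 8 were tested and 3 fell, with a list median of -0.23. These were the hnRNP genes HNRNPA1 at -0.33 (adjusted p = 0.000186), HNRNPD at -0.25 (adjusted p = 0.00524) and HNRNPAB at -0.23 (adjusted p = 0.0202) on the log2 scale. The HNRNPAB call was lost on leaving out any 1 library other than shZDHHC20 replicate 2, with an adjusted p of up to 0.121. HNRNPA1 has many processed pseudogenes, so its value is uncertain. HNRNPA2B1, the relative of HNRNPA1 among the readers, differed by -0.05, and the difference between the pair was not tested. Of 11 writers and erasers, only RBM15, an adaptor of the writer complex, was called, at -0.25 on the log2 scale (adjusted p = 0.0425), and the list median was 0.05. The RBM15 call was lost on leaving out any 1 library other than shZDHHC20 replicate 2 (adjusted p = 0.085 to 0.176) and under a replicate block (adjusted p = 0.0962). Without shZDHHC20 replicate 2 the list had 3 genes higher and 1 lower, and under quantile normalization it had 2 higher and 0 lower, so its direction is not settled. METTL3, the catalytic writer, was at -0.06 (adjusted p = 0.757), its partner METTL14 at 0.18 (adjusted p = 0.253), and the erasers FTO at -0.22 (adjusted p = 0.147) and ALKBH5 at 0.00453 (adjusted p = 0.973) on the log2 scale.

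In the deadenylation and decay list of 18 genes, through which YTHDF proteins act on mRNAs, 1 rose and 3 fell, with a list median of 0.05. DCP2, the decapping enzyme, rose by 0.33 on the log2 scale (adjusted p = 0.00322), while its partner DCP1A fell by 0.42 (adjusted p = 0.00176). The CCR4-NOT subunits CNOT11 at -0.29 (adjusted p = 0.0098) and CNOT8 at -0.23 (adjusted p = 0.0326) were lower, and 9 further CNOT genes were not called. The CNOT11 call was lost without shControl replicate 2 (adjusted p = 0.0566) or 3 (adjusted p = 0.0687). The CNOT8 call was lost without shControl replicate 1, 2 or 3 or shZDHHC20 replicate 1, with an adjusted p of 0.0941 to 0.148. The list had 1 gene higher and 1 lower without shControl replicate 2 or 3, and 4 higher and 4 lower without shZDHHC20 replicate 2. Of 11 stabilizing and nuclear partners, DROSHA, the nuclear microRNA processing enzyme, was the only gene called, higher by 0.31 on the log2 scale (adjusted p = 0.00999), and the list median was 0.01. The call was lost without shControl replicate 1 (adjusted p = 0.0526), shControl replicate 2 (adjusted p = 0.0642) or shZDHHC20 replicate 1 (adjusted p = 0.0517), and without shZDHHC20 replicate 2 the list had 3 genes higher and 1 lower.

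Known target mRNAs of the IGF2BP proteins and of ELAVL1 were also listed. Of 11 IGF2BP targets 2 fell and none rose, with a list median of -0.07. MYC, the transcription factor gene, was at 1797, 1845 and 1969 normalized counts in shControl and at 1270, 1231 and 1218 in shZDHHC20, and fell by 0.59 on the log2 scale (limma, adjusted p = 2.79e-05). LIN28B, an RNA-binding gene that blocks let-7 maturation, fell by 0.78 (adjusted p = 0.0106) from 200.1 ± 26.2 to 118 ± 27.8 normalized counts (SD, n = 3 each, limma). The LIN28B call was lost without shControl replicate 1 (adjusted p = 0.0727) or 3 (adjusted p = 0.0639), and the list had 1 gene higher and 3 lower without shZDHHC20 replicate 2.

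Of 15 ELAVL1 targets 14 were tested, 1 rose and 5 fell, with a list median of -0.21, and MYC is in this list as well. CCND1, which encodes cyclin D1, fell by 0.47 (adjusted p = 2.06e-05) and MCL1, an antiapoptotic gene, by 0.25 on the log2 scale (adjusted p = 0.00186). XIAP, an inhibitor of caspases, rose by 0.29 (adjusted p = 0.0025). The ELAVL1 mRNA itself differed by -0.05 with an interval that included 0, and a part of ELAVL1 in these changes was not tested. Binding of the readers to these mRNAs and their m6A were not analysed here.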

How the data were processed

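RNA was extracted from PANC-1 cells with Trizol and made into strand-specific libraries, per the labels, with 3 shControl and 3 shZDHHC20 samples. The authors deposited 1 table of normalized signal values, never negative, with 1 value per gene and library. It is named as FPKM, but all values are whole multiples, within 0.1 of a step, of the smallest value of each library, as counts divided by 1 size factor would be, and no division by length is seen. The smallest values were 0.939 to 1.06 and the multiples summed to between 16575546 and 18441049 per library. The signal was tested as a continuous value, without a count test. The submitters' processing notes name hg19, and the aligner, counter and annotation are not given in the sources used here. The columns are named siZDHHC20 and NC and were matched to titles by group and replicate number.

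The software was R 4.3.3, limma 3.58.1, Python 3.11.15 and, for plots, matplotlib 3.10.9. Values were taken as log2 of the value plus 0.1 (the pseudocount), genes averaging 1 or more were kept, and limma (lmFit, eBayes with a mean-variance trend) was fitted with group as its term. P-values are two-sided, with Benjamini-Hochberg adjustment across the 22189 genes kept and a threshold of 0.05. Scripts were tested on simulated data. Gene symbols for 27175 of the 27394 identifiers came from the reference table and the others from GENCODE 29 on GRCh38, which gave positions and lengths. GRCh38 is not the submitters' build.

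The members and lists were chosen with earlier results of these data known. The genes named are the 10 members, ZDHHC20, at most 3 called genes in each direction from each list by adjusted p, and the 3 genes most correlated with YTHDF3. MALSU1, CBX3 and NFE2L3, which overlap members, and list genes given as not called were named after their values were seen. Alternatives were other pseudocounts, filters and scalings, no mean-variance trend, a replicate block, leaving out each library and, chosen after seeing the data, a filter at an average of 10 joined to a pseudocount of 1, and removal of GC content.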

Additional observations from a re-analysis of the deposited data

How the results depend on the processing

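HNRNPA2B1, ELAVL1 and ZDHHC20 kept their direction and their side of the threshold in all 16 alternatives. With no mean-variance trend 351 genes were called in place of 2541, with 0 readers and 3 list genes, and YTHDC2 had an adjusted p of 0.147 at a log2 fold change of 0.25. Leaving out 1 library gave 1233 to 4454 genes called, 0 to 1 readers and 13 to 38 list genes, with the highest counts without shZDHHC20 replicate 2. Without 1 library the log2 fold changes ran from 0.22 to 0.29 for YTHDC2, -0.0505 to 0.0378 for YTHDF1, -0.0264 to 0.0954 for YTHDF2, -0.00775 to 0.0948 for YTHDF3, -0.0468 to 0.0550 for YTHDC1 and -0.0320 to 0.0273 for IGF2BP1, and the difference in the YTHDF2 share from -0.124 to 0.814 points. Removal of GC content gave 3 readers called, YTHDC2 higher and IGF2BP2 (-0.17) and IGF2BP3 (-0.20) lower, and turned the sign of YTHDF3 (-0.018) and YTHDC1 (-0.0269). Quantile normalization turned YTHDF1 (0.00288) and IGF2BP1 (0.00135). None of the readers that changed sign passed the threshold under any alternative, and the cause was not tested. The ratio of the highest to the lowest reader level was 28.5 with the longest coding transcript in place of 19.3. A replicate block gave 1942 genes called and 1 reader, YTHDC2, called. Deviations of libraries with the same number had correlations of -0.0948, -0.156 and -0.0771 over 10908 genes, so the numbers were not read as pairs. With 3 libraries a group, exact permutation tests cannot go below 0.1. Depth is known only as a ratio between libraries, and counting error could not be given.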

Other observations

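In the lists around the readers, some functional pairs had ratios that did not overlap between the groups. The ratio of G3BP2 to G3BP1 was 0.529, 0.524 and 0.520 in shControl and 0.959, 0.982 and 0.983 in shZDHHC20, a difference of 0.89 on the log2 scale (exact permutation test, p = 0.1, the smallest possible). The ratio of DCP2 to DCP1A was 1.40, 1.43 and 1.20 in shControl and 2.39, 2.13 and 2.25 in shZDHHC20, a difference of 0.75 on the log2 scale (exact permutation test, p = 0.1). These pairs were chosen after their values were seen. G3BP2 and DCP2 were higher, and G3BP1 and DCP1A lower, in each shZDHHC20 library than in any shControl library. Their ratios therefore could not overlap, and the permutation tests are not separate support.

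NFE2L3, a transcription factor gene that overlaps HNRNPA2B1 on the opposite strand with no shared exon base, was at 4081, 4045 and 4140 normalized counts in shControl and at 3081, 2792 and 2979 in shZDHHC20. It fell by 0.47 on the log2 scale (limma, adjusted p = 6.15e-05), beside a difference of -0.05 for HNRNPA2B1.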
